A study of Mus musculus with 13 samples.

Results

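The 10 genes described here are the classical genes of epithelial-mesenchymal transition (EMT), taken by name from a table of 55332 genes with values, in 13 mouse NUT carcinomas (mNC tumors). They are the epithelial adhesion genes Cdh1 and Epcam, the mesenchymal adhesion gene Cdh2, the intermediate filament gene Vim, and the transcription factor genes Zeb1, Zeb2, Snai1, Snai2, Twist1 and Twist2. Each of the 10 has 1 row in the table, and the list is one of names, with no threshold on a measured value. Epithelial cells are held together by E-cadherin junctions, and in EMT they lose these junctions, replace keratin filaments in part with vimentin and become motile. The program is set in motion by a small group of transcription factors of the Snail, ZEB and Twist families, which bind E-box sequences and repress epithelial genes such as Cdh1. The same factors and products are also made, with no transition, by fibroblasts and other cells of mesenchymal origin, and Snai2 is made by normal basal cells of stratified epithelium.

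NUT carcinoma is a poorly differentiated squamous cancer driven by a Nutm1 fusion oncogene. The study asked what the loss of Sox2 changes in such tumors, and bulk RNA sequencing was done on whole pieces of tumor from the oral mucosa and the pancreas. Every tumor carries a Cre driver and the NUT carcinoma translocator allele (NCT+/-), from which Cre makes the fusion by a rare translocation, so a tumor starts from few recombined cells. The 4 oral WT tumors are labelled KRT14-Cre; NCT+/- and the 4 pancreatic WT tumors Pdx1-Cre; NCT+/-. The 2 oral KO tumors are labelled KRT4Cre; NCT+/-; Sox2fl/fl, where the study's methods name KRT14-Cre, and the 3 pancreatic KO tumors Pdx1-Cre; NCT+/-; Sox2fl; fl. The WT tumors carry no floxed Sox2 by their labels, KRT14-Cre acts in basal cells of oral mucosa, skin and salivary gland, and Pdx1-Cre acts in the pancreatic lineage. Ages are not in the labels.

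The total of estimated counts ran from 29394258 to 40420228 in oral WT tumors, 11735315 and 20432164 in the oral KO tumors, from 40964533 to 46134830 in pancreatic WT tumors and from 89562790 to 120482829 in pancreatic KO tumors. Sox2 had 410 to 1487 counts in the WT tumors and 0 to 2 in the KO tumors. Oral KO replicate 1 stood apart, with 59.5% of its counts in protein-coding genes where the other 12 tumors had 84.47% to 91.67%, and with the lowest total. Estimates of the 10 genes and counts of the epithelial, mesenchymal and regulator lists that rest on the oral KO group are therefore given with and without it, and the marker lists and ratios with every tumor. The squamous and NUT carcinoma markers (Trp63, Krt5, Krt14, Krt6a and Nutm1) were detected in every group, and markers of pancreatic acinar cells summed to at most 1.14 CPM (estimated counts scaled by library size) in oral tumors and to between 3.89 and 203 CPM in pancreatic tumors.

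Levels were compared between genes as CPM per kilobase of the longest coding transcript. In oral WT tumors Vim was highest, at a mean of 132 CPM per kilobase, followed by Epcam at 74.5, Cdh1 at 61.6 and Snai2 at 43.4, and the ranges of neighbours in this order overlapped. Below a gap came Snai1 at 8.26, Zeb2 at 7.92, Twist1 at 4.09 and Zeb1 at 3.82, again with overlapping neighbours. Cdh2 followed at 1.75 and Twist2 at 0.482, each below the range of the gene before it. In pancreatic WT tumors the order opened with Epcam at 232 and Cdh1 at 183 CPM per kilobase, whose ranges overlapped, ahead of Vim at 93.9 and Snai2 at 35.6. Twist2 was the lowest of the 10 genes in all 4 groups. Across the 13 tumors, Snai2 varied least, by 5.18-fold from lowest to highest CPM, and Twist1 and Twist2 most, by 56.3-fold and 86.4-fold.

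**Figure D1:**
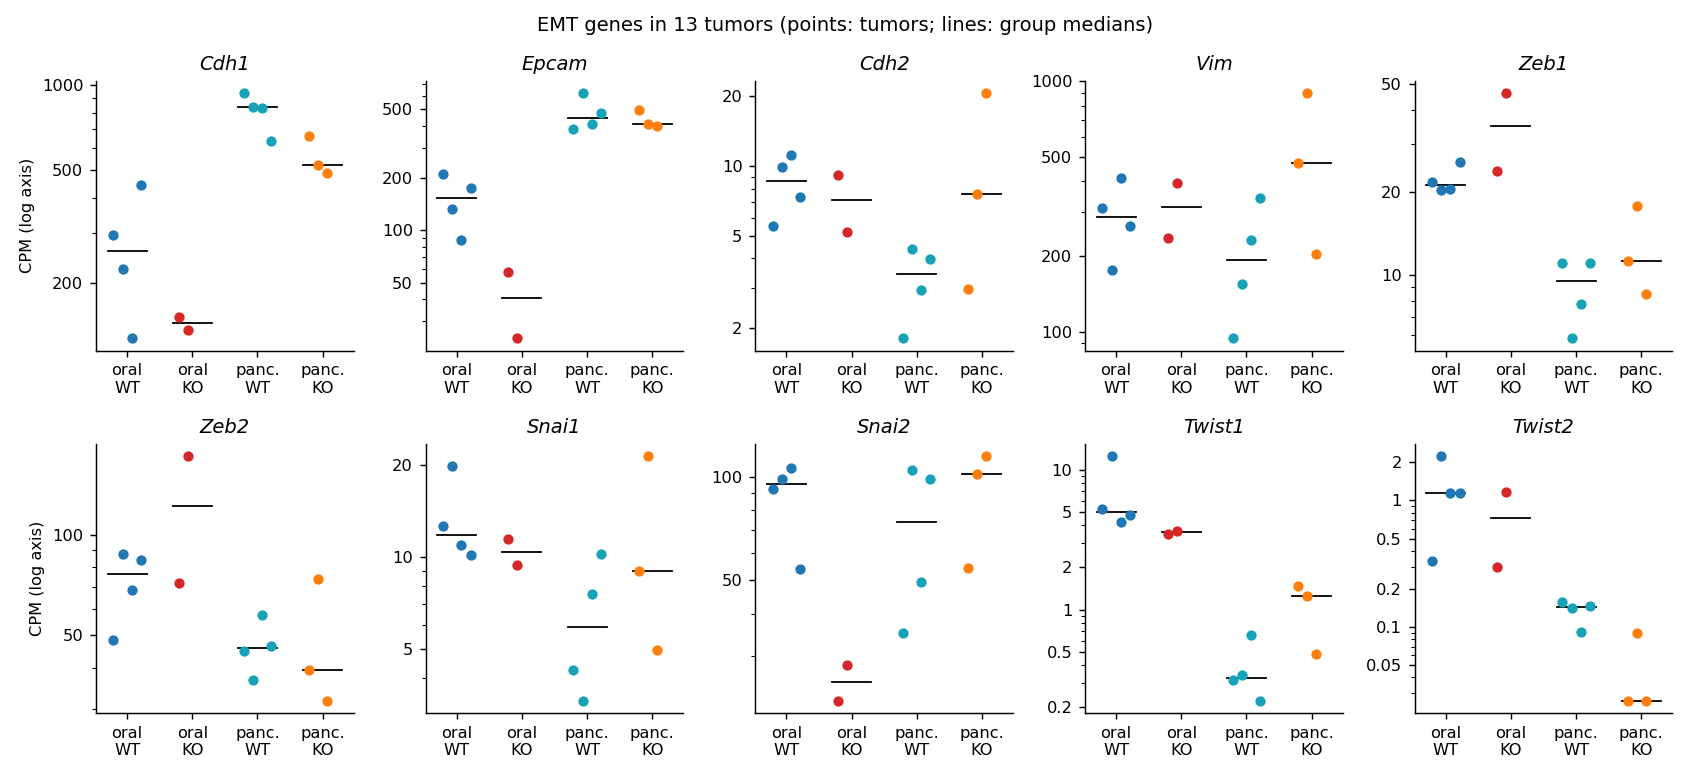
CPM (log axis, a scale of its own for each gene) of the 10 EMT genes in the 13 tumors, by tissue and genotype, with 1 point per tumor and a line at the group median. Cdh1 and Epcam lay lower in every oral tumor than in every pancreatic tumor, Twist1 and Twist2 lay higher, and Snai2 was lowest in the 2 oral KO tumors.

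The comparison of oral with pancreatic WT tumors shows how the EMT genes differ between the sites while Sox2 is intact. Every oral WT tumor had a lower total of estimated counts than every pancreatic WT tumor, and the Cre drivers differ. Site, driver and library depth therefore cannot be told apart. The epithelial genes Cdh1 and Epcam were lower in oral tumors, and Cdh2, Zeb1, Twist1 and Twist2 were higher, which makes 6 of 10 genes called where 16.5% of the 23164 genes tested were called, 9.3% higher and 7.24% lower. Of these, Twist2 reached the test only through its counts in the oral tumors, the group where it was high. A gene is called at an adjusted p under 0.05 (edgeR quasi-likelihood test, Benjamini-Hochberg) and a change of more than 1 on the log2 scale. The median difference of the 10 genes was 0.86 on the log2 scale, beside 0.00 for all genes tested.

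Cdh1 (chr8:106603351-106670246, + strand, GRCm38) encodes E-cadherin, the adhesion molecule of epithelial junctions. The oral WT tumors, in the order of their replicate numbers, had 296, 224, 127 and 445 CPM and the pancreatic WT tumors 937, 840, 832 and 637 CPM. The groups did not overlap, and oral replicate 3 was the lowest of all 13 tumors. Cdh1 was 2.97-fold lower in oral tumors (log2 fold change -1.57, SE 0.34, adjusted p = 0.0120).

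Epcam (chr17:87635979-87651129, + strand) encodes the epithelial cell adhesion molecule of simple and embryonic epithelia. Its level was 211, 132, 88.5 and 176 CPM in the oral WT tumors and 388, 619, 413 and 474 CPM in the pancreatic WT tumors, again without overlap. The difference was 3.11-fold (log2 fold change -1.64, SE 0.27, adjusted p = 0.00397). Its 250 bases before the annotated start (RefSeq, GRCm38.p6, chr17:87635729-87635978, + strand) are shown because they hold the 6-base E-box that Snail and ZEB proteins bind, CACCTG on either strand, in capitals:

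Epcam: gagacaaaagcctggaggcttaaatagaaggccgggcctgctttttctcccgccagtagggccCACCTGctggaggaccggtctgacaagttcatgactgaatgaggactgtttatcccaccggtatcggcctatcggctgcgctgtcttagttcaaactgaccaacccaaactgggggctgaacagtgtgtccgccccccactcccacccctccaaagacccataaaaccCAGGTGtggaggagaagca

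The matches begin at -187 and -19 from the start. Windows of this length were given for 6 of the 10 genes, with Cdh1, Cdh2, Zeb1 and Snai2 having none. Of all 32851 windows, 17.2% hold the motif and 2.06% hold it 2 or more times. Of the 9 windows of the EMT genes, 2 hold it, the Epcam window and that of Snai1, with 1 match at -126. A match describes the letters and is no evidence of binding.

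Cdh2 (chr18:16588877-16809246, - strand) encodes N-cadherin, the cadherin of mesenchymal and neural cells, and was a low gene in every group. The oral WT tumors had 5.49, 9.88, 11.2 and 7.37 CPM and the pancreatic WT tumors 1.81, 4.41, 2.92 and 3.97 CPM. Every oral WT tumor was above every pancreatic WT tumor, by 2.59-fold in the fit (log2 fold change 1.37, SE 0.34, adjusted p = 0.0192). This call was lost without oral WT replicate 2 (adjusted p = 0.0505), without pancreatic WT replicate 3 (0.0577) and in 1 fit of all 13 tumors (0.0731).

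Vim (chr2:13573927-13582826, + strand) encodes vimentin and was not called. The oral WT tumors had 311, 176, 411 and 263 CPM and the pancreatic WT tumors 93.8, 154, 232 and 343 CPM. The groups overlapped widely (log2 fold change 0.50, SE 0.40, adjusted p = 0.406). Vimentin is made in quantity by leukocytes, endothelium and fibroblasts as well as by mesenchymal tumor cells.

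Zeb1 (chr18:5591860-5775467, + strand) and Zeb2 (chr2:44983632-45117395, - strand) encode zinc finger repressors of Cdh1 and of the miR-200 microRNAs. Zeb1 stood at 21.9, 20.3, 20.6 and 25.9 CPM in oral WT tumors and at 11.05, 5.83, 7.82 and 11.04 CPM in pancreatic WT tumors. These groups lay apart with little spread in the oral tumors (log2 fold change 1.31, SE 0.23, adjusted p = 0.00444). Zeb2 read 48.5, 88.0, 68.5 and 84.2 CPM against 44.8, 36.8, 57.5 and 46.5 CPM, overlapped between sites and was not called (log2 fold change 0.64, SE 0.21, adjusted p = 0.0548). Of the genes that overlap them on the opposite strand, Zeb2os had 12 to 177 counts and Gm10125 had 16.9 to 120.4, and the study's counting used strand.

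Snai1 (chr2:167538195-167542814, + strand) and Snai2 (chr16:14705852-14709385, + strand) encode Snail and Slug. Snai1 had 12.6, 19.8, 10.96 and 10.15 CPM in oral WT tumors and 4.25, 3.37, 7.54 and 10.23 CPM in pancreatic WT tumors. The highest pancreatic tumor lay just above the lowest oral one, and the gene was not called (log2 fold change 1.08, SE 0.38, adjusted p = 0.0687). Snai2 had 92.3, 98.4, 106 and 53.8 CPM in oral WT tumors and 35.1, 104, 49.4 and 98.6 CPM in pancreatic WT tumors, with full overlap (log2 fold change 0.29, SE 0.36, adjusted p = 0.615). Snai3, the other Snail family gene, had 0.276 to 1.70 CPM in oral WT and 1.11 to 2.71 CPM in pancreatic WT tumors and was not called (adjusted p = 0.227).

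Twist1 (chr12:33957671-33959829, + strand) and Twist2 (chr1:91801461-91848028, + strand) encode basic helix-loop-helix factors of head mesenchyme and dermis. Twist1 showed the largest difference of the 10 genes, with 5.18, 12.5, 4.24 and 4.71 CPM in oral WT tumors and 0.315, 0.340, 0.661 and 0.222 CPM in pancreatic WT tumors. All oral tumors lay far above all pancreatic ones, and oral replicate 2 was far above the other 3. The fitted difference was 17.1-fold (log2 fold change 4.10, SE 0.51, adjusted p = 0.00133), and without oral WT replicate 2 it was still called. Twist2 was near the limit of counting, where oral WT tumors held 15, 73, 36 and 50 counts and pancreatic WT tumors 6, 5, 4 and 6. It was 8.86-fold higher in the oral tumors (log2 fold change 3.15, SE 0.58, adjusted p = 0.00567). A gene was tested where 2 or more tumors held 10 or more counts, and only oral WT tumors did so for Twist2. The filter thus admitted Twist2 through the group where it was high, so its call is no independent support for a difference. The 250 bases before the starts of both genes (RefSeq, GRCm38.p6, chr12:33957421-33957670 and chr1:91801211-91801460, + strands) are shown as those of the pair with the largest differences between sites, and they hold no match to the E-box:

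Twist1: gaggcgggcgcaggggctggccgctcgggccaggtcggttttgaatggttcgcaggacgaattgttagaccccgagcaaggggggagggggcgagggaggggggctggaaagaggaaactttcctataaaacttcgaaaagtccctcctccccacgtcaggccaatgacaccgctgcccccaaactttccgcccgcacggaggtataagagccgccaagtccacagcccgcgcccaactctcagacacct

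Twist2: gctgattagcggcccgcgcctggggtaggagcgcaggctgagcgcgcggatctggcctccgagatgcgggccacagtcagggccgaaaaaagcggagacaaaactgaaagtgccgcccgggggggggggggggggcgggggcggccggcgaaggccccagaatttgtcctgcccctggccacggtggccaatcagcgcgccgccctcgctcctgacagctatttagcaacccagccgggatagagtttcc

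**Figure D2:**
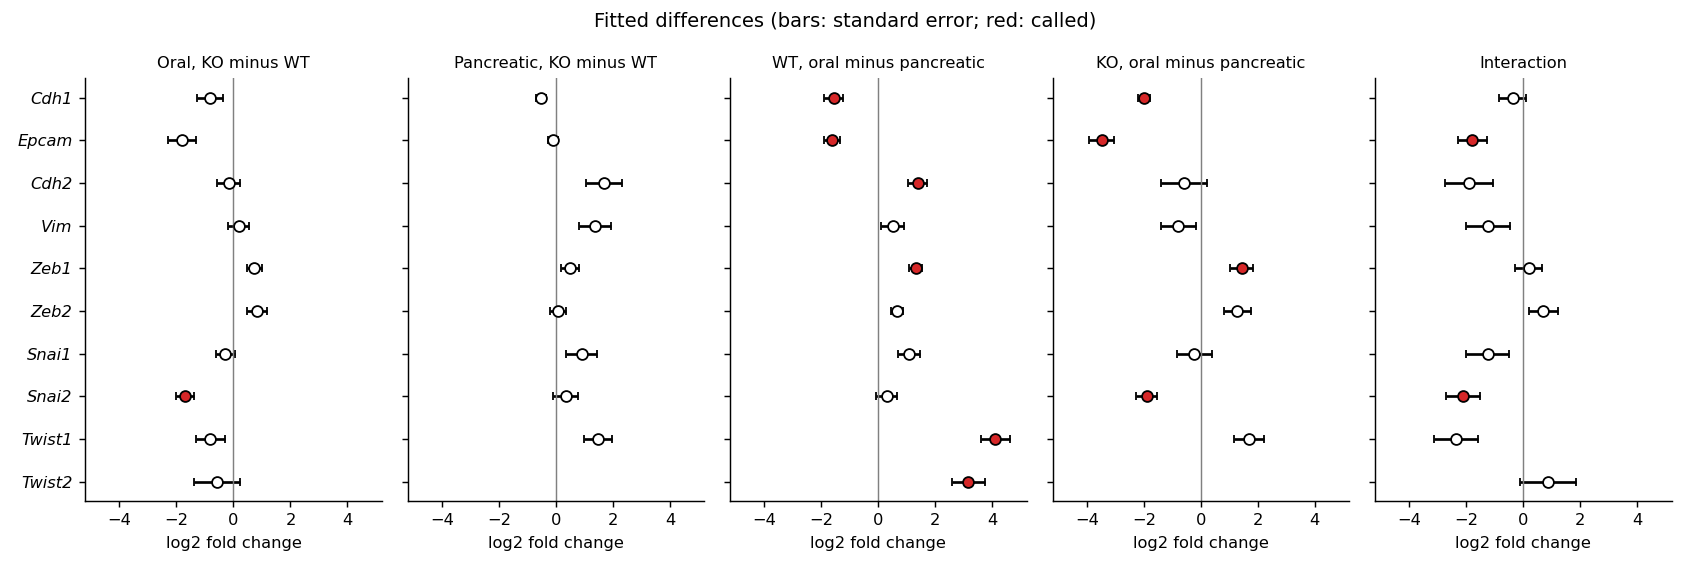
Log2 fold changes of the 10 genes in the 5 comparisons (points, with bars of 1 standard error from edgeR), in red where called. The interaction is the oral KO minus WT difference less the pancreatic one. In the WT panel 6 genes are red, in the KO panel 4, in the oral panel Snai2 alone, in the pancreatic panel none, and Twist2 was not tested in 2 panels for want of counts.

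Further genes of the program were tested in the same fits. Of 26 further epithelial genes, 13 were lower in oral WT than in pancreatic WT tumors and none was higher. Of all genes tested, 7.24% were called lower and 9.3% higher. The 26 genes are of tight and adherens junctions, apical polarity and epithelial transcription, and their median was -1.21 on the log2 scale. Elf3, an epithelial transcription factor, was at a mean of 11.2 against 248 CPM (log2 fold change -4.47, adjusted p = 0.00135). The tight junction gene F11r was lower by -1.67, the epithelial protease gene St14 by -1.23 and the claudin gene Cldn7 by -4.15. Leaving out single tumors gave 12 to 19 such genes, the most without oral WT replicate 4.

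Of 18 mesenchymal products, 7 were higher in oral WT tumors and 1 lower, beside 9.3% of all genes higher and 7.24% lower, and the median was 0.37. Those higher with the smallest adjusted p were Cdh11, an adhesion gene of mesenchyme (log2 fold change 2.81), the gelatinase gene Mmp2 (2.37), the matricellular gene Sparc (1.87) and the integrin gene Itgb3 (1.36). The gene that was lower was Acta2, smooth muscle actin (-1.64). Of 26 further regulators, 7 were higher and none lower, beside the same shares of all genes, with a median of 0.27. Those named are the mesenchymal homeobox genes Prrx1 (2.83) and Prrx2 (2.95) and the growth factor gene Tgfb3 (1.98). These lists and the 10 genes were chosen with earlier results of these data known.

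**Figure D3:**
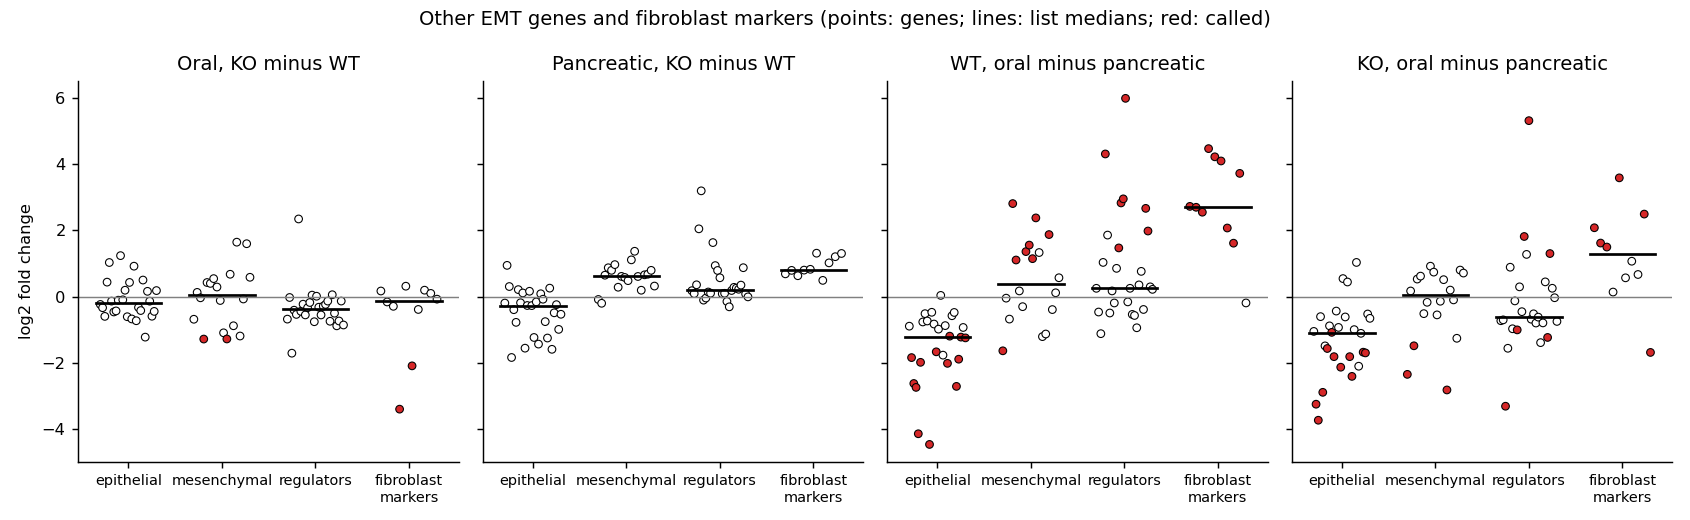
Log2 fold changes of 26 epithelial genes, 18 mesenchymal products, 26 regulators and 10 fibroblast markers in the 4 comparisons (1 point per tested gene, red where called, line at the list median). In WT tumors 13 epithelial genes lay lower in the oral tumors and 9 fibroblast markers higher, while in pancreatic KO against WT no point is red.

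Markers of other cells moved with the site as well. Of 10 fibroblast markers (Col1a1, Col1a2, Col3a1, Dcn, Lum, Pdgfra, Pdgfrb, Thy1, Fap and Postn), 9 were higher in oral WT than in pancreatic WT tumors. Of all genes tested, 9.3% were called higher. Their summed level was 9486 to 19878 CPM in oral WT, 10196 and 10355 CPM in oral KO, 1189.7 to 2370.4 CPM in pancreatic WT and 2309 to 3940.1 CPM in pancreatic KO tumors. None of the 10 was at 0 in any group. The squamous and NUT carcinoma markers summed to 4178 to 8188 CPM in oral WT and 9121 to 16854 CPM in pancreatic WT tumors, with Krt5 and Krt6a called lower in oral tumors. In bulk tissue, fewer cells of a type and less RNA per cell cannot be told apart, and the part of these markers in the differences of the EMT genes was not tested.

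Ratios within a tumor, chosen after the levels had been seen and not tested, differed from gene to gene. Epcam read 21.2 to 26.3 per 1000 CPM of squamous markers in oral WT tumors and 32.2 to 42.5 in pancreatic WT tumors, lower without overlap. Cdh1 on the same scale read 30.4 to 61.7 and 43.4 to 103, with overlap. Snai2, whose CPM overlapped, read 7.45 to 25.4 against 3.85 to 6.71 on it, higher in the oral tumors without overlap. Per 1000 CPM of fibroblast markers, Twist1 read 0.421 to 0.629 in oral WT tumors and 0.0936 to 0.312 in pancreatic WT tumors, higher in the oral tumors, as its CPM was. The other genes set against fibroblast markers, apart from Twist2, were lower in the oral tumors on that scale without overlap. Zeb1 read 1.02 to 2.74 against 3.69 to 9.28, and Cdh2 read 0.497 to 1.11 against 1.38 to 3.04. Vim read 8.88 to 40.8 against 78.9 to 145, and Zeb2 read 4.42 to 8.87 against 19.6 to 37.7. Twist2 overlapped, with 0.0338 to 0.121 against 0.0430 to 0.132. The oral tumor with the highest Twist1 and Twist2, replicate 2, also had the highest fibroblast sum.

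**Figure D4:**
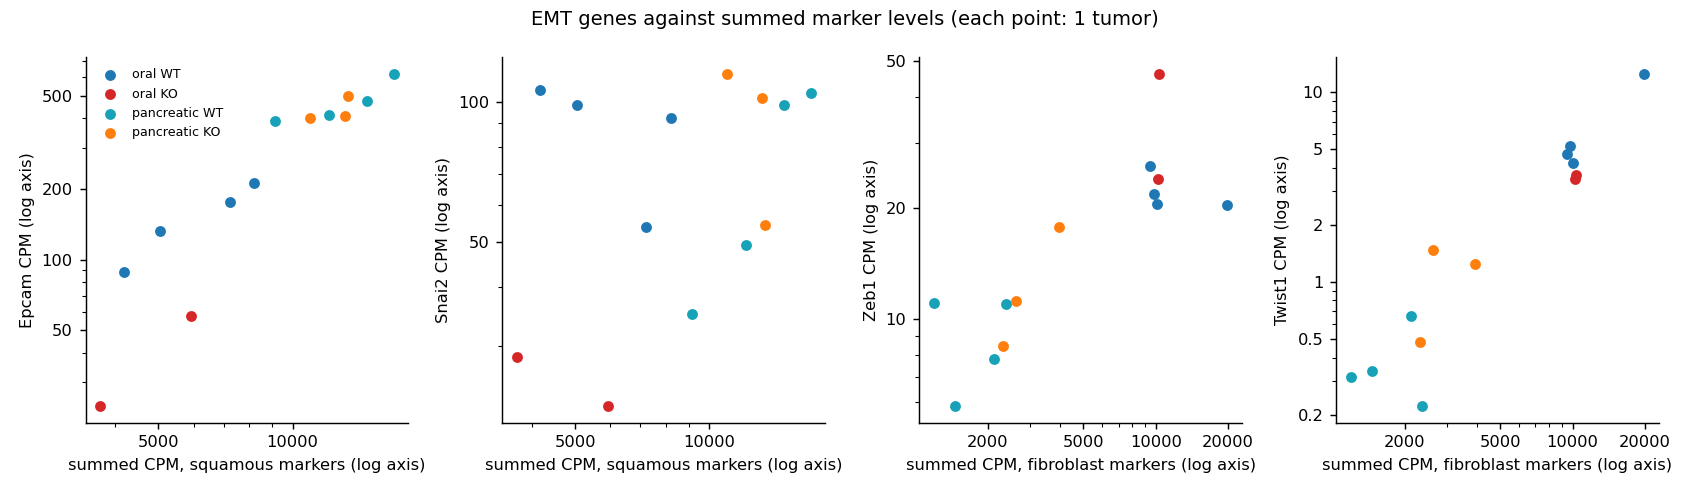
CPM of Epcam and Snai2 against the summed CPM of 5 squamous and NUT carcinoma markers, and of Zeb1 and Twist1 against that of 10 fibroblast markers (log axes, 1 point per tumor, coloured by group). The 2 oral KO tumors have less Epcam than any oral WT tumor, at marker sums of 3703 and 5927 CPM, and oral WT replicate 2 is highest for Twist1 and for the fibroblast sum of 19878 CPM.

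The comparison of oral with pancreatic KO tumors asks the same without Sox2, in tumors that the WT comparison does not share. Of the 9 genes tested, 4 were called, beside 25.2% of 24787 genes. Cdh1, Epcam and Snai2 were lower and Zeb1 was higher in the oral tumors, beside 10.7% of genes lower and 14.6% higher. The median of the 9 genes was -0.60 on the log2 scale, beside 0.00 for all genes. Twist2 was not tested, having 3 and 30 counts in the oral KO and 3, 8 and 3 in the pancreatic KO tumors.

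Among oral KO tumors Cdh1 read 151 and 136 CPM, and the pancreatic KO tumors read 659, 521 and 490 CPM (log2 fold change -2.004, SE 0.21, adjusted p = 0.00592). Epcam stood at 57.5 and 23.8 CPM against 498, 411 and 401 CPM, an 11.2-fold difference (log2 fold change -3.48, SE 0.43, adjusted p = 0.00749). For both adhesion genes the groups lay wide apart, and oral KO replicate 2 held the lowest Epcam of all 13 tumors. Both calls held in 11 of 11 alternatives.

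Among the transcription factors, Zeb1 had 24.0 and 46.2 CPM in the oral KO and 11.2, 17.8 and 8.47 CPM in the pancreatic KO tumors (log2 fold change 1.44, SE 0.40, adjusted p = 0.0404). Snai2 had 22.2 and 28.3 CPM against 54.4, 102 and 115 CPM (log2 fold change -1.90, SE 0.36, adjusted p = 0.0158). Neither gene overlapped between the groups. Twist1, at 3.47 and 3.67 CPM against 1.48, 1.24 and 0.485 CPM, did not overlap either and missed the threshold (log2 fold change 1.69, SE 0.53, adjusted p = 0.0528).

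The other 4 genes overlapped and were not called. Cdh2 had 9.13 and 5.19 CPM in the oral KO tumors and 2.96, 7.55 and 20.6 CPM in the pancreatic KO tumors (log2 fold change -0.60, SE 0.81). Vim had 236 and 393 CPM against 473, 896 and 204 CPM (-0.79, SE 0.60), and Snai1 had 11.4 and 9.40 CPM against 8.97, 21.4 and 4.96 CPM (-0.23, SE 0.61). For these 3 genes the pancreatic KO tumors were more spread than the difference, with replicate 2 the highest for Vim and Snai1 and replicate 3 for Cdh2. Zeb2 had 71.8 and 173 CPM against 39.3, 74.0 and 31.8 CPM (1.28, SE 0.48, adjusted p = 0.0861).

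Without oral KO replicate 1, 3 of the 9 genes were called. Cdh1 (-2.04, adjusted p = 0.0244), Epcam (-4.21, adjusted p = 0.0184) and Zeb1 (1.88, adjusted p = 0.0428) remained so, and Snai2 did not (-1.69, adjusted p = 0.0748). Zeb2 (1.83, adjusted p = 0.0556), Twist1 (1.77, adjusted p = 0.110), Cdh2 (-1.01), Vim (-0.43) and Snai1 (-0.33) were not called there either. A fit of all 13 tumors, in which Twist2 passed the filter on counts and was tested as well, gave 7 calls. Twist2 passed there through the oral WT tumors, which held 15 to 73 counts and are not part of this comparison. No share of all genes is given for that fit, so its 7 calls cannot be set beside the 25.2% above.

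Of the 26 other epithelial genes, 11 were lower in oral than in pancreatic KO tumors and none higher, with a median of -1.10. Of all genes tested, 10.7% were called lower and 14.6% higher. The claudin gene Cldn1 (log2 fold change -3.25), F11r (-2.14), the alpha-catenin gene Ctnna1 (-1.57) and St14 (-1.70) had the smallest adjusted p. Without oral KO replicate 1 the count was 17. Of 18 mesenchymal products, 3 were lower (S100a4 at -2.82, Cald1 at -1.49 and Acta2 at -2.35) and none higher, with a median of 0.03. In the fit without oral KO replicate 1, 3 were lower and 1 higher. Of 25 other regulators tested, 3 were higher (among them Prrx1 at 1.81 and Tgfb2 at 1.30) and 3 lower (the forkhead gene Foxc1 at -3.31, Tgfb1 at -1.24 and the demethylase gene Kdm1a at -1.01), with a median of -0.62. The counts of called mesenchymal products and regulators were no larger a share of their lists than the 25.2% of all genes called. Without oral KO replicate 1, or without pancreatic KO replicate 1, 1 regulator was higher and 2 were lower.

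Several marker lists moved with this comparison, and their part in it was not tested. Fibroblast markers were called higher for 5 of 10 and lower for 1, and skeletal muscle markers were higher for 7 of 7 tested. Of all genes tested, 14.6% were called higher and 10.7% lower. Of 9 leukocyte markers tested, 1 was higher and 1 lower, near those shares, with a median of -1.04, and 2 of 5 squamous markers were lower. The muscle markers summed to 2870.2 and 5191 CPM in the oral KO tumors, 514 CPM in oral WT replicate 4 and at most 12.9 CPM in the other 10 tumors, with Myod1 at 0 in all pancreatic tumors. Per 1000 CPM of squamous markers, Epcam read 6.42 and 9.71 in oral KO against 31.4 to 37.5 in pancreatic KO tumors and Cdh1 25.5 and 36.9 against 39.8 to 49.6, both without overlap. Snai2 read 3.75 and 7.66 against 4.09 to 10.5 on that scale, with overlap.

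Loss of Sox2 in oral tumors was examined next, in 2 KO against 4 WT tumors, with the values given above. Snai2 was the 1 gene of the 10 that was called, beside 11.7% of 22342 genes called, 8.81% higher and 2.89% lower, so the count is near that of genes at large in this fit. The shares depend on the method, since the study, with DESeq2, reported more genes lower than higher in oral KO tumors. Snai2 was lower in oral KO tumors by 3.29-fold (22.2 and 28.3 against 53.8 to 106 CPM, log2 fold change -1.72, SE 0.32, adjusted p = 0.0238). Each KO tumor lay below each WT tumor. The call held in 6 of 12 alternatives, with adjusted p values from 4.73e-05 to 0.0957, and it was lost without either KO tumor (-1.57, adjusted p = 0.0957 without replicate 1, and -1.86, adjusted p = 0.0934 without replicate 2), as well as without oral WT replicate 1 (0.0557) or 2 (0.0713), with protein-coding genes alone (0.0669) and with the tumor number as a block (0.0618).

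Epcam missed the threshold narrowly. The KO tumors, at 57.5 and 23.8 CPM, lay below the lowest WT tumor at 88.5 CPM (log2 fold change -1.81, SE 0.49, adjusted p = 0.0530). It was called in 3 of 12 alternatives, and without oral KO replicate 1 the estimate was -2.62 (adjusted p = 0.0664). Twist1 also did not overlap, with 3.47 and 3.67 CPM against a lowest WT value of 4.24 CPM (log2 fold change -0.81, SE 0.52, adjusted p = 0.294, and -0.80 without replicate 1).

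The other 7 genes overlapped between oral KO and WT. Cdh1 had a log2 fold change of -0.84 (SE 0.46, adjusted p = 0.232), with 151 and 136 CPM in the KO tumors and 127 CPM in the lowest WT tumor. Zeb1 was at 0.73 (SE 0.27, adjusted p = 0.102) and Zeb2 at 0.83 (SE 0.36, adjusted p = 0.150), and for both genes oral KO replicate 2 was the highest of all 13 tumors while replicate 1 lay within the WT range. Cdh2 (-0.17, SE 0.41), Vim (0.18, SE 0.36), Snai1 (-0.28, SE 0.34) and Twist2 (-0.57, SE 0.82) had estimates smaller than their standard errors. The estimates without oral KO replicate 1 were -0.94 for Cdh1 (adjusted p = 0.391), 1.11 for Zeb1 (0.0679), 1.31 for Zeb2 (0.0825), -0.65 for Cdh2, 0.49 for Vim, -0.45 for Snai1 and 0.0073 for Twist2, none of them called.

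In the same comparison none of the 26 other epithelial genes was called, with 0 at an unadjusted p under 0.05, beside 35.4% of all genes, and 0 by DESeq2. Of the mesenchymal products, Cdh11 (-1.28, adjusted p = 0.0384) and Mmp2 (-1.28, adjusted p = 0.0290) were lower by edgeR, as 2 of 18. Of all genes tested, 2.89% were called lower and 11.7% in either direction, so the 2 of 18 are near the share called in either direction. Neither gene was called without either oral KO tumor or without any 1 of oral WT replicates 1, 2 and 3. None of 26 other regulators was called by edgeR, 5 had an unadjusted p under 0.05 beside the 35.4% of all genes, and DESeq2 called 1. The fibroblast markers Dcn and Lum were lower in oral KO tumors, while the fibroblast sums overlapped between oral KO and WT, the squamous sums overlapped at 3703 and 5927 against 4178 to 8188 CPM, and muscle sums did not. The squamous marker Krt5 was lower without overlap and not called (-1.04, adjusted p = 0.0537). Of 9 leukocyte markers tested, 7 had negative estimates and none was called, with a median of -0.97 beside -0.003 for all genes tested. The leukocyte sums were 235 and 460 CPM in oral KO and 340 to 563 CPM in oral WT tumors. The part of these lists in the values of Snai2 and Epcam was not tested. Per 1000 CPM of squamous markers, Epcam read 6.42 and 9.71 in the KO and 21.2 to 26.3 in the WT tumors, and Snai2 read 3.75 and 7.66 against 7.45 to 25.4, so Epcam stayed apart and Snai2 did not.

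In pancreatic tumors, 3 KO were compared with 4 WT, and none of the 9 genes tested was called by edgeR, beside 0.629% of 24653 genes. DESeq2 called none either. At an unadjusted p under 0.05 there were 4 of the 9, beside 15.9% of all genes. All 9 overlapped between KO and WT. Cdh1 had 490 to 659 CPM in KO and 637 to 937 CPM in WT tumors (log2 fold change -0.53, SE 0.17, adjusted p = 0.185). Cdh2 had an estimate of 1.68 (SE 0.62, adjusted p = 0.246), Vim of 1.36 (SE 0.56, adjusted p = 0.298) and Twist1 of 1.47 (SE 0.49, adjusted p = 0.200).

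Single tumors moved these estimates. Without pancreatic KO replicate 3, which held 20.6 CPM of Cdh2, the Cdh2 estimate was 0.70, and without replicate 2, which held 896 CPM of Vim, the Vim estimate was 0.74. Replicate 2 also had the highest fibroblast (3940.1 CPM), leukocyte (695 CPM) and chondrocyte (219 CPM) marker sums of its group, and replicate 3 the highest acinar sum (203 CPM). The part of these markers was not tested.

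Epcam was at -0.11 (SE 0.18) between pancreatic KO and WT tumors, Zeb2 at 0.07 (SE 0.29), Snai2 at 0.35 (SE 0.43), Zeb1 at 0.49 (SE 0.32) and Snai1 at 0.90 (SE 0.55). None of the 26 other epithelial genes, 18 mesenchymal products and 25 regulators tested was called by edgeR, beside 0.629% of all genes. In that order, 12, 8 and 5 of them had an unadjusted p under 0.05, beside 15.9% of all genes, a share that the 5 of 25 regulators were near. The counts for epithelial genes and regulators depended on the setting. DESeq2 called 6 epithelial genes lower and 3 regulators higher, edgeR with the tumor number as a block called 6 epithelial genes lower, and edgeR without pancreatic WT replicate 4 called 3 lower. The share of all genes called under these settings is not given here. These counts therefore cannot be set against the 0.629% of the main fit. The medians of the lists were -0.27, 0.63 and 0.18 on the log2 scale, beside 0.02 for all genes. Fibroblast markers had positive estimates for 10 of 10, none of them called, with a median of 0.81.

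Whether the KO minus WT difference differed between the 2 sites was tested as an interaction in 1 fit of all 13 tumors. The totals of estimated counts were lower in oral KO than in oral WT tumors, without overlap. They were higher in pancreatic KO than in pancreatic WT tumors, again without overlap. Genotype and library depth therefore cannot be told apart at either site. Of the 10 genes, 2 were called, both lower, beside 12.3% of 25836 genes, 7.41% higher and 4.85% lower. For Epcam the oral KO minus WT difference was lower than the pancreatic one by -1.79 on the log2 scale (SE 0.50, adjusted p = 0.0340). For Snai2 it was lower by -2.12 (SE 0.61, adjusted p = 0.0381). In both cases the oral KO tumors were low while the pancreatic KO minus WT estimates were -0.11 and 0.35. Without oral KO replicate 1, Epcam was called (-2.60, adjusted p = 0.0234) and Snai2 was not (-2.01, adjusted p = 0.115). Over the 18 alternatives Epcam was called in 10 (adjusted p from 0.00555 to 0.116) and Snai2 in 7 (adjusted p from 0.00585 to 0.115). Epcam lost the call without oral WT replicate 1, oral KO replicate 2, pancreatic WT replicate 1 or 3, or any 1 pancreatic KO tumor. Snai2 lost it without any 1 of oral WT replicates 1, 2 and 3, either oral KO tumor, pancreatic WT replicate 3, or pancreatic KO replicate 2 or 3.

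Twist1, lower in the oral difference by -2.36 (SE 0.78, adjusted p = 0.0574), and Cdh2, by -1.91 (SE 0.84, adjusted p = 0.131), missed the threshold, also without oral KO replicate 1 (-2.37, adjusted p = 0.132, and -2.42, adjusted p = 0.157). The other 6 genes had estimates from -1.26 for Snai1 to 0.87 for Twist2, and from -1.45 to 1.41 for these 6 without that tumor. Among the other genes, Elf3 had a positive interaction (2.70), and the mesenchymal products Cdh11 (-2.23), Mmp14 (-1.64), Mmp2 (-2.46) and Sparc (-1.91) and the regulators Tcf3 (-1.09), which encodes an E-box factor of the helix-loop-helix class, and Tgfb3 (-1.67) had negative ones. Without oral KO replicate 1, 2 epithelial genes were called lower and Elf3 was not called, and 3 mesenchymal products and 1 regulator were lower. Over the 18 alternatives Elf3 was called in 8, Cdh11 and Mmp14 in 18, Mmp2 in 17, Sparc in 6, Tcf3 in 15 and Tgfb3 in 14. The fibroblast markers Dcn (-4.28) and Lum (-3.48) and the squamous marker Krt5 (-1.33) were called lower in this test as well.

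Ratios of counts per kilobase within a tumor set the genes against each other without any scaling between libraries. They are descriptions of the values above, and no test was made of them. Cdh1 exceeded Cdh2 in every tumor. The ratio was 58.8, 24.8, 12.4 and 66.1 in oral WT tumors, 18.1 and 28.8 in oral KO tumors, 566, 208, 312 and 176 in pancreatic WT tumors and 243, 75.5 and 26.0 in pancreatic KO tumors. A rise of N-cadherin over E-cadherin is a usual readout of EMT. In bulk tissue the ratio also carries the RNA of other cells, so it cannot tell whether tumor cells had undergone EMT. The oral and pancreatic WT tumors did not overlap.

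Epcam over Vim was 0.731, 0.806, 0.231 and 0.719 in oral WT tumors, 0.262 and 0.0651 in oral KO tumors, 4.44, 4.31, 1.92 and 1.48 in pancreatic WT tumors and 1.13, 0.493 and 2.11 in pancreatic KO tumors. The order of the WT groups had no overlap, and the pancreatic KO tumors spanned from the oral WT range into the pancreatic WT range. Snai2 exceeded Snai1 everywhere, by 3.98 to 7.76 in oral WT, 1.56 and 2.42 in oral KO, 5.26 to 24.9 in pancreatic WT and 3.83 to 18.6 in pancreatic KO tumors. The 2 oral KO tumors were thus the lowest of the 13 for this ratio. Zeb2 exceeded Zeb1 in all tumors, by 1.41 to 4.68, and Twist1 exceeded Twist2 by 2.33 to 87.4.

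**Figure D5:**
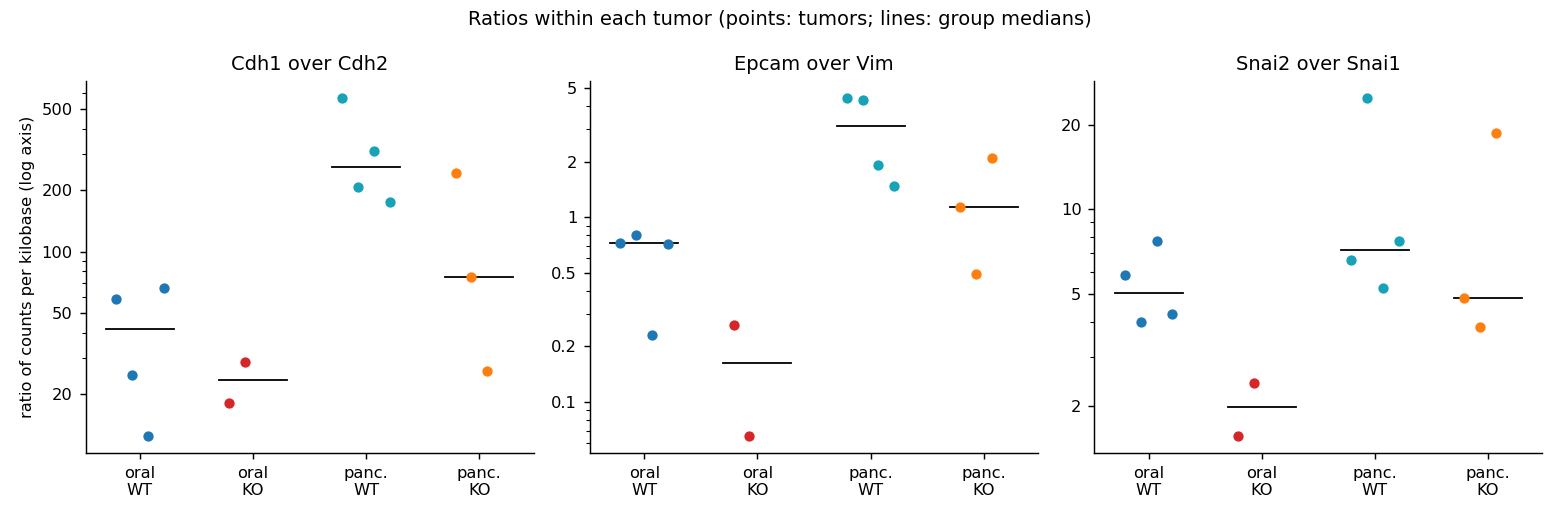
Ratios of counts per kilobase within each tumor (log axis) for Cdh1 over Cdh2, Epcam over Vim and Snai2 over Snai1, with 1 point per tumor and a line at the group median. Cdh1 over Cdh2 is above 12 in every tumor and at least 175.5 in pancreatic WT tumors, and Snai2 over Snai1 is lowest in the 2 oral KO tumors, at 1.56 and 2.42.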

How the data were processed

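Total RNA of 13 tumors was depleted of ribosomal RNA and sequenced with a stranded kit. The authors trimmed reads with Trim Galore 0.6.10, quantified them with kallisto 0.50.0 on GENCODE M23 (GRCm38, stranded setting) and collapsed transcripts to genes with tximport. The authors' deposited estimated counts are unscaled. Of 56085 rows, 753 hold no values. Identifiers were named from GENCODE M21. Counts were rounded and tested with edgeR 4.0.16 in R 4.3.3 (TMM, robust quasi-likelihood fit, Benjamini-Hochberg adjustment over all genes tested) on the tumors of each comparison, where 2 or more tumors held 10 or more counts. The procedure was tried on simulated counts with changes planted in well-counted genes. The simulation held no library like oral KO replicate 1, so it does not cover such a tumor or genes at low counts. SE is the log2 fold change over the root of F. CPM were scaled by TMM over the 13 tumors. Overlap of CPM between groups was looked at for the genes of the lists only, so no share over all genes stands beside it. Alternatives were DESeq2 size factors, no filter, DESeq2 1.42.0 with apeglm 1.24.0, protein-coding genes alone, the tumor number as a block, 1 joint fit, and omission of each tumor in turn. Shares of all genes called are from the main fits alone, so counts under an alternative have no share beside them. An arm left with 1 tumor was fitted with the spread of the other arm. All 10 genes are named, and of each further list up to 4 called genes per direction with the smallest adjusted p, except 1 regulator that is not reported here. The genes and lists were chosen with earlier results of these data known. Nothing states that the tumors came from separate mice, so p-values measure the spread between tumors. Low counts limit Twist2, at 3 to 8 in pancreatic tumors, including the pancreatic KO tumors, which had the highest totals.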

Additional observations from a re-analysis of the deposited data

Results flagged for a closer look

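Twist1 in oral WT replicate 2 was flagged as far from the other 3 oral WT tumors, at 12.5 CPM where they had 4.24 to 5.18 CPM. Its gap to the nearest tumor exceeded Dixon's 95% critical value for 4 tumors, in 1 of 20 groups of 4 looked at, and chance flags about 1 group in 20. The same tumor had the highest fibroblast marker sum, 19878 CPM.

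Epcam and Snai2 were flagged because the KO minus WT difference differed between oral and pancreatic tumors by the interaction test. The interaction was -1.79 on the log2 scale for Epcam (adjusted p = 0.0340, edgeR) and -2.12 for Snai2 (adjusted p = 0.0381, edgeR), and both rest on 2 oral KO tumors, of which replicate 1 stood apart in its share of protein-coding counts.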

How the results depend on the processing

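Of 656 alternative estimates for single genes, 592 kept their direction and their side of the threshold, 33 lost a call, 14 gained one and 17 changed sign. The 6 calls in oral against pancreatic WT tumors became 5 to 7. In oral KO against WT (1 call) there were 2 calls with DESeq2 size factors, with DESeq2 and apeglm and in 1 fit of all 13 tumors, 0 with protein-coding genes alone or the replicate block, and 0 to 1 leaving out single tumors. In oral against pancreatic KO (4 calls) the fit of all tumors gave 7 and leaving out single tumors 2 to 4. The interaction (2 calls) gave 1 with no filter, 0 with protein-coding genes alone, 1 with the replicate block and 0 to 3 leaving out single tumors. For the 9 genes tested, the pancreatic KO comparison gave 0 throughout. Twist2 passed the filter in the fit of all 13 tumors, so the 7 calls in oral against pancreatic KO are of 10 genes, and no share of all genes stands beside them. The cause of these shifts was not tested.

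Signs changed only for genes that were not called. Cdh2 in oral KO against WT was 0.0286 with protein-coding genes alone and -0.65 to 0.22 leaving out single tumors, Vim -0.19 to 0.49 and Twist2 -1.90 to 0.0073. In pancreatic KO against WT, Epcam ranged from -0.21 to 0.0524 and Zeb2 from -0.37 to 0.30 leaving out single tumors, and Zeb2 was -0.0081 with the replicate block. In oral against pancreatic KO, Cdh2 was 0.49 with the replicate block and -1.01 to 0.41 leaving out single tumors, and Snai1 was 0.045 with protein-coding genes alone and -0.58 to 0.54. For the interaction the ranges were -0.37 to 0.53 for Zeb1, -0.0622 to 1.15 for Zeb2 and -0.51 to 1.62 for Twist2.

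For tumors of equal number, deviations from group means correlated over genes by -0.152 to 0.419, with 1 of 11 pairs above 0.1. That pair was replicate 1 of the pancreatic KO and pancreatic WT tumors, at 0.419. Deviations within groups this small depend on each other, so these correlations cannot decide whether tumors of equal number are linked. Whether they share a mouse or a processing step was not tested.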
